A study of Homo sapiens with 14 samples.

Results

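The histone genes of the HIST clusters were examined in 14 total RNA libraries of Panc-1 and AsPC-1, a pair of human pancreatic cancer lines. The deposited tables list 79 rows whose symbol begins with HIST and a cluster number. Of these, 14 rows carry a duplicate number, given to genes listed at more than 1 place, and were left out. Among the remaining 65 rows, a gene was kept as a member when it reached 1 RPKM (reads per kilobase of gene, scaled to library size) or more in at least 2 of the 14 libraries. That rule kept 62 members of the 23040 genes listed, namely 6 H1, 14 H2A, 18 H2B, 11 H3 and 13 H4 genes. By cluster, 53 members are HIST1 genes on chromosome 6, 6 are HIST2 and 2 are HIST3 genes on chromosome 1, and HIST4H4 lies alone on chromosome 12. The members nearest the threshold were HIST1H1A and HIST1H1T, each with 2 libraries at 1 RPKM or more. The 3 genes outside it, HIST1H2AA, HIST1H2BA and HIST3H3, peaked at 0.280, 0.350 and 0.320 RPKM, and 51 members were at 1 RPKM or more in every library. Among the 11 other members, HIST1H1A, HIST1H1T, HIST1H3G, HIST1H4F, HIST1H4G and HIST2H2BC reached 1 RPKM only in Panc-1 at 1 h or 5 h or in AsPC-1 mock and 24 h libraries, and HIST1H4K only in AsPC-1. These 7 genes entered through the libraries in which they were high, so their differences are given below as values without a test. HIST2H3D reached 1 RPKM in 1 Panc-1 library and in every AsPC-1 library, so its difference between the lines is treated alike. Counts over all members and by class include these genes. The counts called for the change by 24 h and between the lines are also given over the 51.

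Core histones H2A, H2B, H3 and H4 form the protein spool on which nuclear DNA is wound, and linker histone H1 binds where the DNA enters and leaves it. Replication-dependent histone genes are transcribed mainly in S phase, when new DNA needs packaging, and their mRNAs are degraded when DNA synthesis stops. Most of these mRNAs carry no poly(A) tail and end instead in a conserved stem-loop bound by the stem-loop binding protein SLBP, so libraries made from polyadenylated RNA alone tend to miss them.

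Each line contributed 7 libraries, 1 per condition. Serum-starved cells received EGF (epidermal growth factor, 50 ng per ml) or ANG (angiogenin, also called ribonuclease 5, 1 µg per ml) for 1, 5 or 24 h, and the untreated cells are labelled mock, with no time and no statement on serum for the mock culture itself. Panc-1 came from a carcinoma of the pancreatic duct and AsPC-1 from ascites of a patient with pancreatic adenocarcinoma. Of 7 ductal markers, the keratins KRT8, KRT18 and KRT19 were at 250.2 RPKM or more in every library. The others were lower, with KRT7 at 2.82 to 4.16 RPKM in Panc-1, against 4.55 to 15.7 RPKM in AsPC-1, and MUC1 at 0.770 to 1.75 RPKM over both lines. EPCAM was at 4.88 to 5.58 RPKM in Panc-1, against 149 to 230.1 RPKM in AsPC-1, and CDH1 at 5.86 to 13.4 RPKM in Panc-1, against 21.3 to 89.3 RPKM in AsPC-1. The acinar, islet, blood, endothelial and fibroblast markers stayed at or under 0.980 RPKM.

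The sequence that defines the family at the RNA level is the 3′ stem-loop, shown here for members of several classes because it is the feature that sets these transcripts apart from polyadenylated mRNA. In the GENCODE transcripts (release 29), 25 of the 62 members hold a match to a stem of 6 base pairs (G with U allowed) and a loop of 4 bases, in 6 different 16-base forms, and the commonest form occurs in 12 members. Many annotated transcripts stop near the coding end, so the absence of a match in the other 37 says only that these letters are not in the annotated transcript. In the lines below the stem is in capitals and the sequence is the DNA-sense transcript.
HIST1H2AE: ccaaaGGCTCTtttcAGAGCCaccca
HIST1H2BG: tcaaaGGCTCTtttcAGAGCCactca
HIST1H2BD: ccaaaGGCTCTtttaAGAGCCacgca
HIST1H3H: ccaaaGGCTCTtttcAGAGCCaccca
HIST1H3E: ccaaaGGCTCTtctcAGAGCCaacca
HIST1H4H: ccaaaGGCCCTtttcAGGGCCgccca
HIST4H4: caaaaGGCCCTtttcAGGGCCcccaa
The H2A, H2B and H3 forms shown share the same stem, the H4 forms carry a different base pair in it, and HIST1H2BD and HIST1H3E each differ from the commonest form in 1 base of the loop. Where a gene had several matches or transcripts, the match nearest to a transcript end was used. By that choice, which favours short tails, the transcript runs on for 100 bases or more past the stem-loop in 15 of the 25 matched members.

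Promoter sequence was looked at because the members moved together. A RefSeq window (GRCh38.p14, 250 bases before to 50 after the start) was found for 50 of 62 members. The 12 without one were HIST1H2AH, HIST1H2BC, HIST1H2BE, HIST1H2BF, HIST1H2BG, HIST1H2BI, HIST1H3I, HIST1H3J, HIST1H4A, HIST1H4C, HIST2H2BA and HIST2H2BC. The TATA box TATAAA, read on the gene's strand, occurred in 29 of the 50 windows (58%), against 7.71% of all 27305 promoter windows. The CCAAT box, read on both strands, occurred in 42 of 50 (84%), against 35.7% of all windows, and it was in every H1, H2A, H2B and H3 window but in 3 of 11 H4 windows. The octamer ATTTGCAT, read on both strands and bound by OCT1 in H2B promoters, was in 7 of 11 H2B windows. It was in 10 of 13 H2A, 1 of 9 H3 and no H1 or H4 windows, against 1.80% of all windows. The H3 window with it, of HIST1H3D, is also the window of HIST1H2AD. Windows of divergent H2A and H2B genes can overlap, as for HIST1H2BJ and HIST1H2AG. A single octamer can thus count in both classes, and the 50 windows are not all separate. AAACACA, the core of the H1 box, was in 6 of 6 H1 windows and in 1 of the other members' windows, against 5.76% of all. GTCCGC, a part of the H4 promoter element, was in 6 of 11 H4 windows, against 12.7% of all. Both were read on both strands, and none of the 5 motifs contains another. Shown are the 250 bases before the start for an H1 gene, an H2B gene and genes of class H3 and H4 described later, with these motifs in capitals.
HIST1H1B (chr6:27867589-27867838, minus strand): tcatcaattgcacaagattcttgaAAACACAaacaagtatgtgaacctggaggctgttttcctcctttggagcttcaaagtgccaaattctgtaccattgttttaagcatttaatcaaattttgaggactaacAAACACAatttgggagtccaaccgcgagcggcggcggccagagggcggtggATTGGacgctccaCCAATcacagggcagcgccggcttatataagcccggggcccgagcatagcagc
HIST1H2BJ (chr6:27132796-27133045, minus strand): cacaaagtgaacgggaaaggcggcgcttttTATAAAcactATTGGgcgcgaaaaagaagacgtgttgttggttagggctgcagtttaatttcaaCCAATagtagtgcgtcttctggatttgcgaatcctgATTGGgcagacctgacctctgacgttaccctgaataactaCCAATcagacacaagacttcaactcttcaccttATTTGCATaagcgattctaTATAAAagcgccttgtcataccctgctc
HIST1H3F (chr6:26250636-26250885, minus strand): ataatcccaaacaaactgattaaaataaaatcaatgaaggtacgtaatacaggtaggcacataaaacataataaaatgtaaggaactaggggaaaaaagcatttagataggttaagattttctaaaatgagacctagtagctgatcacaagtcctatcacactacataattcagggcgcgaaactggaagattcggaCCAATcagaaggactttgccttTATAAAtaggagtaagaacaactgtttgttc
HIST1H2BH (chr6:26251364-26251613, plus strand): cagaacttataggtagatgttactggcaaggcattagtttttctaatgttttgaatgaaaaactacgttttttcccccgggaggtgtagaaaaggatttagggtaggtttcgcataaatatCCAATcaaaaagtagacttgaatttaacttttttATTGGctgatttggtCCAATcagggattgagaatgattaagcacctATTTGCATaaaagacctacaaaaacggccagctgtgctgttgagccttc
HIST1H4I (chr6:27139032-27139281, plus strand): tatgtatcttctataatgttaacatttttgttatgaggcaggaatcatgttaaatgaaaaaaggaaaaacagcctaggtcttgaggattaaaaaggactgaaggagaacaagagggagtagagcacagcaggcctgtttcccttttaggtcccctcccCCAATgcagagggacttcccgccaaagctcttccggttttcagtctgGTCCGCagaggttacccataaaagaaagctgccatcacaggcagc
HIST1H1B has 2 copies of the H1 box upstream of its CCAAT boxes. HIST1H2BJ and HIST1H2BH both hold the octamer, HIST1H3F has a CCAAT and a TATA box, and HIST1H4I has the H4 motif.

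Depth differed between the lines. The tables give no counts, but values of short genes move in steps of 1 read. From these steps the libraries were estimated at 11.2 to 16.9 M reads for Panc-1 and 18.9 to 23.9 M reads for AsPC-1. The 57 members with a span of 1000 bp or less held 0.0443% to 1.02% of the reads, and 45 of the 57 had an estimated 20 reads or more in every library. Short non-HIST genes under 400 bp took 5.03% to 11.3% of reads at 1 and 5 h in Panc-1 and 6.19% to 16.5% in its mock and 24 h libraries. In AsPC-1 these shares were 5.29% to 17.2% at 1 and 5 h and 5.92% to 13.4% in mock and at 24 h, so the ranges overlap in both lines. Reads of near-identical copies could be split or dropped in the authors' counting, which is not given in the sources used here. In the transcripts, 9 members share more than 25% of their 50-base words with another HIST gene, among them HIST1H4K (100%) and HIST1H4J (81.2%), HIST2H3D (80.4%), HIST1H2AJ (83.7%) and HIST1H2AI (62.3%). HIST1H2AD overlaps the annotated span of HIST1H3D on the same strand by 453 bp and HIST1H4I lies within that of HIST1H2BK on the opposite strand, so the values of these 4 genes are uncertain to that extent. With no replicate cultures, the tests below use the libraries of the other agent, time or line as repeats, and their p-values measure the spread between such libraries. In bulk RNA, fewer cells making histone mRNA and less histone mRNA per cell cannot be told apart.

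Histone transcripts ran in opposite directions in the 2 lines. Panc-1 held the most histone RNA at 1 and 5 h and AsPC-1 the least. The summed RPKM of the 62 members was 3653 in Panc-1 mock cells, 11897, 14647 and 4917 at 1, 5 and 24 h of EGF, and 16356, 15845 and 3821 at 1, 5 and 24 h of ANG. In AsPC-1 it was 19055 in mock cells, 1747, 986 and 18897 at 1, 5 and 24 h of EGF, and 1412, 1409 and 21356 at 1, 5 and 24 h of ANG. In each line both 24 h libraries were nearer to mock than any of the 4 early libraries were. The Panc-1 sum at 24 h was 0.370 of the mean of 1 h and 5 h with EGF and 0.237 with ANG. The AsPC-1 sum at 24 h was 13.8 times that mean with EGF and 15.1 times with ANG. Against mock, the 24 h sums were 1.35 times (EGF) and 1.05 times (ANG) in Panc-1, and 0.992 times (EGF) and 1.12 times (ANG) in AsPC-1. The sums of Panc-1 over AsPC-1 were 0.192 in mock, 6.81, 14.9 and 0.260 at 1, 5 and 24 h of EGF and 11.6, 11.2 and 0.179 at 1, 5 and 24 h of ANG. The line with more histone RNA thus differed by time under both agents. The 5 members with the highest mean level, HIST1H3C, HIST1H1C, HIST1H3H, HIST1H4C and HIST1H1B, made up 21.0% to 35.6% of the sum.

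**Figure D1:**
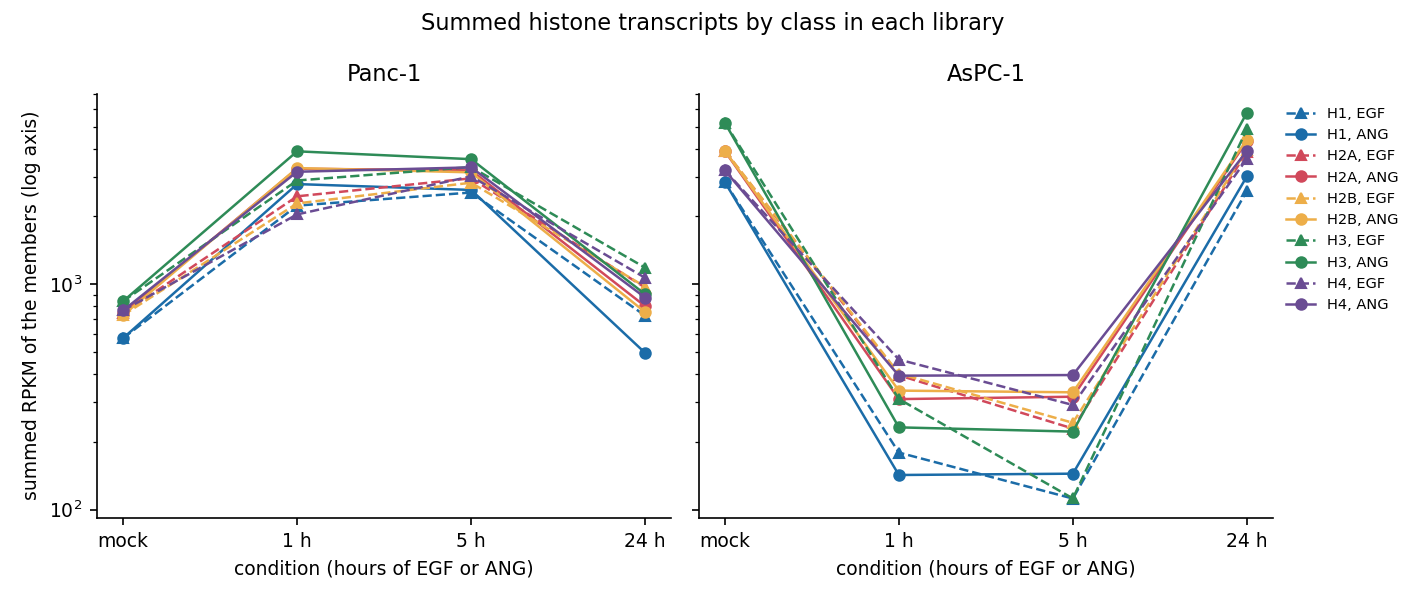
Summed RPKM of the H1, H2A, H2B, H3 and H4 members in each library on a log axis, for Panc-1 (left) and AsPC-1 (right), in mock and at 1, 5 and 24 h of EGF (triangles, dashed) or ANG (circles, solid). Each point is 1 library, and all 5 classes peak at 1 and 5 h in Panc-1 and dip at those times in AsPC-1.

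The share of each class in the sum varied with time, and not in the same way in both lines. H3 made up 22.6% to 24.3% of the summed RPKM over the 7 Panc-1 libraries. In AsPC-1 its share was 11.4% to 17.7% in the 4 early libraries and 25.8% to 27.3% in the mock and 24 h libraries, so that these groups did not overlap. H4 moved the other way in AsPC-1, with 26.5% to 29.5% early and 16.8% to 19.1% in mock and at 24 h. In Panc-1 the H4 share lay between 17.1% and 22.8% over all 7 libraries. The H1 share in Panc-1 was 16.5% to 18.8% in the early libraries and 13.0% to 15.8% in mock and at 24 h, without overlap. In AsPC-1 the H1 share was 10.1% to 11.3% early and 13.7% to 14.9% in mock and at 24 h, the opposite order to Panc-1. The AsPC-1 sum at 24 h of EGF over its early mean was 17.9 for H1, 12.4 for H2A, 12.3 for H2B, 23.1 for H3 and 9.56 for H4. With ANG these ratios were 21.0 for H1, 13.8 for H2A, 13.1 for H2B, 25.4 for H3 and 9.90 for H4. In Panc-1 with EGF the ratios lay between 0.303 for H1 and 0.423 for H4, and with ANG between 0.183 for H1 and 0.270 for H4. These shares and ratios are descriptions of sums and carry no test.

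Gene by gene, the change by 24 h was tested with limma on log2(RPKM + 1) over all 13427 genes with 1 RPKM or more in 2 libraries. In Panc-1, 53 members were lower at 24 h than at 1 h and 5 h, 0 were higher and 9 did not pass an adjusted p of 0.05, where 17.0% of all genes tested were lower and 16.0% higher. The median log2 fold change of the members was -1.65, against 0 for all genes, with a range of -2.35 to 0.26. In AsPC-1, 60 members were higher at 24 h, 0 were lower and 2 did not pass, where 29.8% of all genes tested were higher and 19.4% lower. Their median log2 fold change was 3.86, against 0.06 for all genes, with a range of 0.21 to 5.32. Of the 51 members at 1 RPKM or more in every library, 48 were lower in Panc-1 and 51 were higher in AsPC-1. Without the Panc-1 ANG 24 h library, the Panc-1 count of lower members was 27 in place of 53. Read library by library, the 4 early Panc-1 libraries all lay above both 24 h libraries and mock for 52 of 62 members (20.9% of all genes tested). All 4 early AsPC-1 libraries lay below both 24 h libraries and mock for 61 of 62 members (31.5% of all genes). Both counts include genes that became members through the libraries in which they were high.

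**Figure D2:**
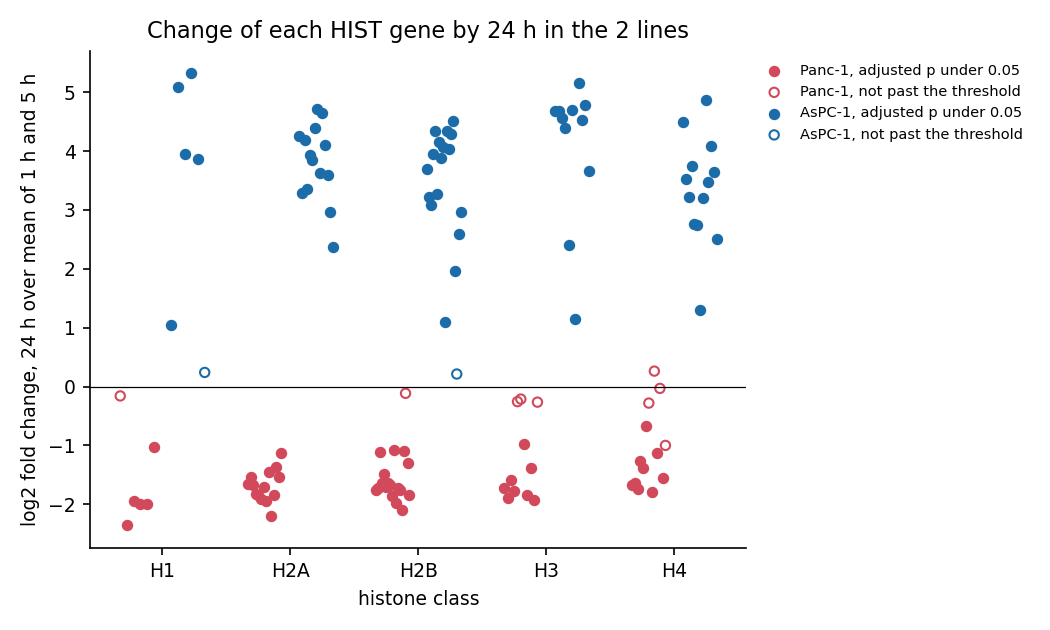
Log2 fold change of each of the 62 members at 24 h over the mean of 1 h and 5 h, by histone class, in Panc-1 (red) and AsPC-1 (blue). Each point is 1 gene, filled where the limma adjusted p was under 0.05 and open where it was not. The Panc-1 points lie between -2.35 and 0.26, and the AsPC-1 points between 0.21 and 5.32.

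The linker histones included the widest swings. HIST1H1B encodes H1.5 and was at 132 RPKM in mock, 656, 820.3 and 191 RPKM at 1, 5 and 24 h of EGF, and 904, 758 and 120 RPKM at 1, 5 and 24 h of ANG in Panc-1. The AsPC-1 levels were 728 RPKM in mock, 33.6, 10.8 and 618 RPKM at 1, 5 and 24 h of EGF, and 18.0, 19.0 and 739 RPKM at 1, 5 and 24 h of ANG. The early libraries were the highest in Panc-1 and the lowest in AsPC-1, with no overlap with mock or 24 h in either line. HIST1H1B fell at 24 h in Panc-1 (log2 fold change -2.35 ± 0.33 SE, adjusted p = 0.00251) and rose in AsPC-1 (log2 fold change 5.09 ± 0.33 SE, adjusted p = 5.1e-05). Without the ANG 24 h library the Panc-1 log2 fold change was -1.93, with an adjusted p of 0.0559. HIST1H1C, which encodes H1.2 and was the linker gene with the highest mean level, was at 289 RPKM in mock, 949.5, 1026 and 309 RPKM at 1, 5 and 24 h of EGF, and 1059, 1122 and 235 RPKM at 1, 5 and 24 h of ANG in Panc-1. It was at 1196 RPKM in mock, 88.8, 61.0 and 1067 RPKM at 1, 5 and 24 h of EGF, and 81.4, 79.7 and 1347 RPKM at 1, 5 and 24 h of ANG in AsPC-1. HIST1H1C also fell in Panc-1 (log2 fold change -1.94 ± 0.16 SE, adjusted p = 0.00072) and rose in AsPC-1 (log2 fold change 3.94 ± 0.16 SE, adjusted p = 2.7e-05). HIST1H1D, for H1.3, and HIST1H1E, for H1.4, changed by -2.00 and -2.00 in Panc-1, against 5.32 and 3.86 in AsPC-1 on the log2 scale, all past the threshold, and 5.32 was the highest value of all members. The remaining linker genes were near the detection limit. HIST1H1T, the testis H1, was at most 2.37 RPKM in Panc-1, against 0.260 RPKM in AsPC-1, and HIST1H1A was at most 0.340 RPKM in Panc-1, against 1.39 RPKM in AsPC-1. HIST1H1T reached 1 RPKM only at 1 h and 5 h of ANG in Panc-1, and HIST1H1A only in mock and at 24 h of ANG in AsPC-1.

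All 14 H2A members were lower at 24 h in Panc-1 (17.0% of all genes tested) and higher at 24 h in AsPC-1 (29.8%). HIST1H2AE, which had the highest mean level of the class, was at 105 RPKM in mock, 377, 425 and 137 RPKM at 1, 5 and 24 h of EGF, and 458, 435 and 103 RPKM at 1, 5 and 24 h of ANG in Panc-1. AsPC-1 cells held 751 RPKM in mock, 102, 70.5 and 816 RPKM at 1, 5 and 24 h of EGF, and 76.4, 83.3 and 885 RPKM at 1, 5 and 24 h of ANG. Its early and late libraries did not overlap in either line (Panc-1 log2 fold change -1.82 ± 0.18 SE, adjusted p = 0.000944, AsPC-1 log2 fold change 3.35 ± 0.18 SE, adjusted p = 3.1e-05). HIST1H2AL had the largest fall of the class in Panc-1. Its Panc-1 levels were 32.8 RPKM in mock, 143, 161 and 39.4 RPKM at 1, 5 and 24 h of EGF, and 214, 205 and 36.4 RPKM at 1, 5 and 24 h of ANG, and its log2 fold change at 24 h was -2.21 in Panc-1, against 4.64 in AsPC-1. HIST1H2AJ had the largest rise of the class in AsPC-1 (log2 fold change 4.71 ± 0.31 SE, adjusted p = 5.3e-05), although it shares 83.7% of its 50-base words with other HIST genes. HIST3H2A, from the small cluster on chromosome 1, had the least change in AsPC-1. It was at 15.8 RPKM in mock, 5.73, 4.31 and 39.9 RPKM at 1, 5 and 24 h of EGF, and 6.09, 5.05 and 24.8 RPKM at 1, 5 and 24 h of ANG in that line (log2 fold change 2.37 ± 0.22 SE, adjusted p = 0.000171), and its highest library was EGF at 24 h.

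Of 18 H2B members, 17 were lower at 24 h in Panc-1 (17.0% of all genes tested) and 17 were higher at 24 h in AsPC-1 (29.8%). HIST1H2BG had the highest mean level, with 106 RPKM in mock, 307, 354 and 132 RPKM at 1, 5 and 24 h of EGF, and 431, 421 and 98.6 RPKM at 1, 5 and 24 h of ANG in Panc-1. Its AsPC-1 values were 776 RPKM in mock, 90.8, 58.0 and 688 RPKM at 1, 5 and 24 h of EGF, and 79.5, 77.1 and 788 RPKM at 1, 5 and 24 h of ANG. The groups did not overlap in either line (Panc-1 log2 fold change -1.71 ± 0.19 SE, adjusted p = 0.00141, AsPC-1 log2 fold change 3.27 ± 0.19 SE, adjusted p = 4.1e-05). HIST1H2BO had the largest fall in Panc-1 (log2 fold change -2.10 ± 0.26 SE, adjusted p = 0.00171) and the largest rise in AsPC-1 (log2 fold change 4.51 ± 0.26 SE, adjusted p = 3.9e-05) within the class. HIST1H2BK had the smallest called rise of the H2B genes in AsPC-1, with 31.5 RPKM in mock, 13.8, 11.8 and 25.6 RPKM at 1, 5 and 24 h of EGF, and 16.2, 11.4 and 33.2 RPKM at 1, 5 and 24 h of ANG. In Panc-1 HIST1H2BK was at 15.9 RPKM in mock, 29.9, 34.1 and 16.1 RPKM at 1, 5 and 24 h of EGF, and 35.3, 28.2 and 13.1 RPKM at 1, 5 and 24 h of ANG, and it changed by -1.08 in Panc-1, against 1.09 in AsPC-1. Its annotated span of over 1000 bp includes HIST1H4I on the opposite strand. HIST2H2BC was at 1.30 RPKM or less in every library. For HIST2H2BA, 63.3% of the 50-base words are shared with other HIST genes, and 54.3% with HIST2H2BF, whose duplicate rows were left out. Reads of copies could thus have been assigned to HIST2H2BA or lost. HIST2H2BA fell in Panc-1 (log2 fold change -1.10 ± 0.23 SE, adjusted p = 0.0106, but log2 fold change -0.61 and adjusted p = 0.138 without the ANG 24 h library) and rose in AsPC-1 (log2 fold change 1.96 ± 0.23 SE, adjusted p = 0.000441). HIST3H2BB, which encodes the H2B of the HIST3 cluster, was at 50.8 RPKM in mock, 11.6, 9.36 and 126 RPKM at 1, 5 and 24 h of EGF, and 12.4, 11.2 and 69.8 RPKM at 1, 5 and 24 h of ANG in AsPC-1, so that its EGF 24 h library exceeded every other one.

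For H3, 8 of 11 members were lower at 24 h in Panc-1 (17.0% of all genes tested) and 11 of 11 were higher in AsPC-1 (29.8%). Both counts include HIST1H3G, which became a member through libraries in which it was high. HIST1H3C had the highest mean level of all 62 members. It was at 354 RPKM in mock, 1033, 1071 and 436 RPKM at 1, 5 and 24 h of EGF, and 1421, 1420 and 377 RPKM at 1, 5 and 24 h of ANG in Panc-1. In AsPC-1 it was at 1565 RPKM in mock, 90.9, 43.1 and 1525 RPKM at 1, 5 and 24 h of EGF, and 74.6, 69.2 and 1711 RPKM at 1, 5 and 24 h of ANG. HIST1H3C fell in Panc-1 (log2 fold change -1.59 ± 0.21 SE, adjusted p = 0.00223) and rose in AsPC-1 (log2 fold change 4.57 ± 0.21 SE, adjusted p = 2.9e-05). HIST1H3H had the largest rise of the class in AsPC-1, with 1184 RPKM in mock, 42.7, 13.3 and 1002 RPKM at 1, 5 and 24 h of EGF, and 37.7, 37.5 and 1231 RPKM at 1, 5 and 24 h of ANG. In Panc-1 it was at 179 RPKM in mock, 982, 1205 and 416 RPKM at 1, 5 and 24 h of EGF, and 1058, 802 and 186 RPKM at 1, 5 and 24 h of ANG, and at 24 h the EGF library was above the ANG library. HIST1H3E was one of the 3 H3 genes that did not pass in Panc-1 (log2 fold change -0.26 ± 0.13 SE, adjusted p = 0.174), where all 7 libraries were between 4.01 and 10.0 RPKM. The AsPC-1 levels were 30.3 RPKM in mock, 3.90, 4.15 and 27.1 RPKM at 1, 5 and 24 h of EGF, and 6.77, 5.22 and 33.9 RPKM at 1, 5 and 24 h of ANG (log2 fold change 2.41 ± 0.13 SE, adjusted p = 3.6e-05). HIST1H3F and HIST2H3D were the other two, and are described with the difference between the lines. HIST1H3G was at 0.960 RPKM in mock, 1.13, 0.960 and 0.330 RPKM at 1, 5 and 24 h of EGF, and 2.41, 2.62 and 0.410 RPKM at 1, 5 and 24 h of ANG in Panc-1.

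For H4, 9 of 13 members were lower at 24 h in Panc-1 (17.0% of all genes tested) and 13 of 13 were higher in AsPC-1 (29.8%). HIST1H4F, HIST1H4G and HIST1H4K are among the 13, and became members through libraries in which they were high. HIST1H4C, with the highest mean level of the class, was at 191 RPKM in mock, 617, 812 and 262 RPKM at 1, 5 and 24 h of EGF, and 829, 876 and 206 RPKM at 1, 5 and 24 h of ANG in Panc-1. AsPC-1 cells held 911 RPKM in mock, 129.7, 78.6 and 889 RPKM at 1, 5 and 24 h of EGF, and 105, 102 and 1035 RPKM at 1, 5 and 24 h of ANG. HIST1H4C fell in Panc-1 (log2 fold change -1.74 ± 0.19 SE, adjusted p = 0.00128) and rose in AsPC-1 (log2 fold change 3.21 ± 0.19 SE, adjusted p = 4.1e-05), and its early libraries did not overlap the others. HIST1H4I had the largest rise of the class in AsPC-1 (log2 fold change 4.87 ± 0.24 SE, adjusted p = 2.9e-05) and did not pass in Panc-1, where it was at 1.47 RPKM or less. HIST4H4, the H4 gene outside the clusters, was at 55.5 RPKM in mock, 61.95, 194 and 76.2 RPKM at 1, 5 and 24 h of EGF, and 251, 205 and 80.9 RPKM at 1, 5 and 24 h of ANG in Panc-1. The EGF 1 h library of Panc-1 was low among its early libraries, and the Panc-1 change missed the threshold (log2 fold change -0.999 ± 0.38 SE, adjusted p = 0.0824). Without that library its log2 fold change was -1.48 with an adjusted p of 0.00715. In AsPC-1 HIST4H4 was at 285 RPKM in mock, 76.2, 55.1 and 443 RPKM at 1, 5 and 24 h of EGF, and 69.2, 76.4 and 354 RPKM at 1, 5 and 24 h of ANG (log2 fold change 2.51 ± 0.38 SE, adjusted p = 0.00138). HIST1H4F, at 1.29 RPKM or less in Panc-1, was at 3.30 RPKM in mock, 0, 0.360 and 6.91 RPKM at 1, 5 and 24 h of EGF, and 0, 0.13 and 6.04 RPKM at 1, 5 and 24 h of ANG in AsPC-1. HIST1H4G, at 0.97 RPKM or less in Panc-1, was at 1.25 RPKM in mock, 0, 0.120 and 1.77 RPKM at 1, 5 and 24 h of EGF, and 0.290, 0.13 and 1.80 RPKM at 1, 5 and 24 h of ANG in AsPC-1.

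Some replication-dependent histone genes are also known to give polyadenylated transcripts in non-dividing or differentiated cells. All 8 such genes listed were lower at 24 h in Panc-1 (17.0% of all genes tested) and higher at 24 h in AsPC-1 (29.8%). They were HIST1H1C, HIST1H2AC, HIST1H2BC, HIST1H2BD, HIST1H2BJ, HIST1H2BK, HIST2H2BE and HIST1H4H. Their median log2 fold change was -1.63 in Panc-1, against 3.21 in AsPC-1, beside -1.65 and 3.90 for the 54 other members. HIST2H2BE, an H2B gene with a long annotated transcript, was at 6.71 RPKM in mock, 13.4, 23.1 and 8.95 RPKM at 1, 5 and 24 h of EGF, and 18.1, 21.2 and 5.35 RPKM at 1, 5 and 24 h of ANG in Panc-1. Its AsPC-1 values were 27.1 RPKM in mock, 5.79, 4.60 and 34.4 RPKM at 1, 5 and 24 h of EGF, and 5.62, 4.58 and 37.7 RPKM at 1, 5 and 24 h of ANG. It fell by 1.30 in Panc-1 and rose by 2.60 in AsPC-1 on the log2 scale, and its early libraries did not overlap the others in either line. HIST1H2BD changed by -1.11 and 3.08, HIST1H2AC by -1.53 and 3.29, and HIST1H4H by -1.79 and 3.20 in Panc-1 and AsPC-1, all on the log2 scale and past the threshold.

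The difference between the lines in the change by 24 h was itself tested as an interaction. It was negative (Panc-1 minus AsPC-1) and past the threshold for 61 of 62 members, where 25.5% of all genes tested were lower and 18.1% higher. The median log2 difference of the members was -5.19, against -0.05 for all genes. The differences with the largest size were those of HIST1H1B (log2 difference -7.45 ± 0.47 SE, adjusted p = 5.3e-05), HIST1H1D (log2 difference -7.32 ± 0.37 SE, adjusted p = 3.9e-05) and HIST1H3H (log2 difference -7.01 ± 0.48 SE, adjusted p = 7.1e-05). All 51 members at 1 RPKM or more in every library were among the 61, and HIST2H2BC was the one member that did not pass. Between 5 h and 1 h no member passed in either line, where 0.0149% of all genes tested were called higher in Panc-1 and 0% in AsPC-1. At an unadjusted p under 0.05 were 1 of 62 members and 2.98% of all genes in Panc-1, and 5 of 62 members and 7.08% of all genes in AsPC-1. The AsPC-1 sum was 0.565 times as high at 5 h as at 1 h with EGF and 0.998 times with ANG, and in Panc-1 these ratios were 1.23 with EGF and 0.969 with ANG.

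Set against the mock library of its line, which has no stated time, each treated library gives a description without a test. In Panc-1, 45, 50 and 1 members were 2-fold or more higher than mock at 1, 5 and 24 h of EGF, where 3.37%, 3.89% and 1.99% of all genes were. With ANG 53, 50 and 0 members were 2-fold or more higher at 1, 5 and 24 h, where 3.77%, 4.10% and 2.56% of all genes were. No member was lower than mock by that margin in any Panc-1 library, where 2.11%, 3.38% and 0.186% of all genes were at 1, 5 and 24 h of EGF and 1.92%, 2.41% and 0.0968% were at those times of ANG. In AsPC-1, 59, 59 and 0 members were 2-fold or more lower than mock at 1, 5 and 24 h of EGF, where 12%, 14.4% and 2.76% of all genes were. With ANG 57, 57 and 0 members were 2-fold or more lower at 1, 5 and 24 h, where 10.9%, 12.1% and 0.0447% of all genes were. At 24 h in AsPC-1, 5 members were 2-fold or more higher than mock with EGF (2.42% of all genes) and 1 with ANG (1.42%), and at 1 h and 5 h none were, where 5.23% and 5.27% of all genes were with EGF and 4.77% and 5.00% with ANG. A fit across both lines, which adds the lines together and therefore averages opposite directions, called 0 of 62 members with limma in each of the 6 comparisons with mock and had 0 at an unadjusted p under 0.05, where 1.5% to 22.3% of all genes were. The median log2 differences of the members in that fit were -0.91, -1.21 and 0.21 at 1, 5 and 24 h of EGF and -0.82, -0.79 and 0.13 at 1, 5 and 24 h of ANG. In that fit 0.454%, 3.63% and 0% of all genes were called lower and 0.209%, 0.596% and 0% higher at 1, 5 and 24 h of EGF. For ANG, 0.0819%, 0.112% and 0% were called lower and 0% higher at each time.

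EGF and ANG gave histone levels that the test did not separate. Within the 6 pairs of line and time, 0 of 62 members passed in either direction with limma, where 0.142% of all genes were higher and 0.0149% lower with EGF, and 8 of 62 members were at an unadjusted p under 0.05, as were 2146 of the 13427 genes tested. The median log2 difference, EGF minus ANG, was -0.09, with a range of -0.48 to 0.15. The sum with EGF over the sum with ANG was 0.727, 0.924 and 1.29 at 1, 5 and 24 h in Panc-1, and 1.24, 0.700 and 0.885 at 1, 5 and 24 h in AsPC-1. The lowest value was that of HIST1H3E (log2 difference -0.48 ± 0.09 SE, adjusted p = 0.0891), followed by HIST1H4D (log2 difference -0.47 ± 0.19 SE, adjusted p = 0.285) and HIST2H3D (log2 difference -0.44 ± 0.16 SE, adjusted p = 0.254). The highest were those of HIST3H2BB (log2 difference 0.15 ± 0.13 SE, adjusted p = 0.597), HIST1H4I (log2 difference 0.14 ± 0.15 SE, adjusted p = 0.663) and HIST1H4A (log2 difference 0.12 ± 0.18 SE, adjusted p = 0.757). HIST1H3E was lower with EGF in 6 of 6 pairs, at 6.28, 4.06 and 4.89 RPKM with EGF against 10.0, 7.61 and 6.03 RPKM with ANG at 1, 5 and 24 h in Panc-1. In AsPC-1 it was at 3.90, 4.15 and 27.1 RPKM with EGF against 6.77, 5.22 and 33.9 RPKM with ANG. The difference between the lines in the effect of agent was also not called for any member with limma, with 1 of 62 at an unadjusted p under 0.05 and 7.75% of all genes. A p that misses the threshold does not show that the agents act alike.

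Across the 7 conditions, 5 members were lower in Panc-1 than in AsPC-1 and 0 were higher, where 29.3% of all genes tested were lower and 39.6% higher. Over the 51 members at 1 RPKM or more in every library, 2 were lower and 0 higher. The median log2 difference of the members, Panc-1 minus AsPC-1, was 0.84, against 0.13 for all genes, and 49 of 62 were positive. This fit averages opposite directions. The summed members of Panc-1 over AsPC-1 were 6.81 to 14.9 at 1 h and 5 h, against 0.179 to 0.260 in mock and at 24 h. Early conditions outnumber the others, and the opposite time courses enter the fit as spread. The median, the positive signs and the few calls are thus no measure of a constant line difference. Without the mock, ANG 24 h or EGF 24 h condition in turn, 3, 3 and 1 members were called higher in Panc-1 in place of 0. The 5 lower members were HIST1H3F, HIST1H2BH, HIST2H3D, HIST1H4I and HIST1H4K, of which HIST1H3F and HIST1H2BH were at 1 RPKM or more in every library. HIST1H4K and HIST2H3D became members only with AsPC-1 libraries, so their line differences are descriptions and not test results. The same 5 members were lower in Panc-1 in all 7 conditions, where 25.1% of all genes were. HIST1H3F was at 4.11 RPKM in mock, 4.39, 6.13 and 3.84 RPKM at 1, 5 and 24 h of EGF, and 2.67, 4.10 and 3.13 RPKM at 1, 5 and 24 h of ANG in Panc-1. In AsPC-1 it was at 904 RPKM in mock, 64.7, 11.8 and 813 RPKM at 1, 5 and 24 h of EGF, and 37.5, 35.0 and 901 RPKM at 1, 5 and 24 h of ANG. The highest Panc-1 library of HIST1H3F was thus below the lowest AsPC-1 library (log2 fold change -4.76 ± 0.89 SE, adjusted p = 0.00134). Its change by 24 h was not past the threshold in Panc-1 (log2 fold change -0.21 ± 0.37 SE, adjusted p = 0.702), whereas it rose in AsPC-1 (log2 fold change 4.70 ± 0.37 SE, adjusted p = 9.4e-05). It made up 0.0687% to 0.489% of the H3 sum in Panc-1 libraries, against 10.5% to 20.9% in AsPC-1 libraries. HIST1H2BH starts 1044 bp away on the opposite strand and was at 5.26 RPKM in mock, 15.98, 12.6 and 5.50 RPKM at 1, 5 and 24 h of EGF, and 29.1, 19.2 and 4.92 RPKM at 1, 5 and 24 h of ANG in Panc-1. The AsPC-1 levels were 632 RPKM in mock, 38.4, 23.3 and 563 RPKM at 1, 5 and 24 h of EGF, and 37.9, 34.5 and 641 RPKM at 1, 5 and 24 h of ANG. Unlike HIST1H3F, HIST1H2BH passed the test of the change by 24 h in Panc-1 (-1.64), and its line difference was called (log2 fold change -3.30 ± 1.00 SE, adjusted p = 0.0172), although its highest Panc-1 library and lowest AsPC-1 library overlapped. Neither HIST1H3F nor HIST1H2BH shares a 50-base word with the transcript of another HIST gene.

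HIST2H3D was at 0.560 RPKM in mock, 0.430, 0.2 and 0.170 RPKM at 1, 5 and 24 h of EGF, and 1.17, 0.840 and 0.550 RPKM at 1, 5 and 24 h of ANG in Panc-1. AsPC-1 cells held 122 RPKM in mock and 15.8, 6.11 and 135 RPKM at 1, 5 and 24 h of EGF. With ANG they held 11.6, 13.6 and 174 RPKM at those times. HIST2H3D became a member only with AsPC-1 libraries, so no test of its line difference is given. It shares 80.4% of its 50-base words with other HIST genes, so reads of copies could have been assigned to it or lost. HIST1H4I was at most 1.47 RPKM in Panc-1, and in AsPC-1 it was at 90.2 RPKM in mock, 8.72, 3.66 and 213 RPKM at 1, 5 and 24 h of EGF, and 5.30, 6.40 and 181 RPKM at 1, 5 and 24 h of ANG (log2 fold change -3.62 ± 0.76 SE, adjusted p = 0.00266). HIST1H4K was at most 0.330 RPKM in Panc-1 and at 0 in 3 of the 7 libraries, and in AsPC-1 it was at 19.6 RPKM in mock, 1.61, 1.6 and 45.8 RPKM at 1, 5 and 24 h of EGF, and 1.65, 1.31 and 39.1 RPKM at 1, 5 and 24 h of ANG, the line through which it entered the set. HIST1H4K shares all its 50-base words with HIST1H4J, which was not called between the lines (log2 fold change 0.08 ± 0.78 SE, adjusted p = 0.931). HIST1H1D and HIST1H2BI near HIST1H3F had log2 differences of 1.64 and 0.68, neither past the threshold. HIST1H4F, HIST1H4G and HIST1H3G, also near it, had differences of -0.83, -0.34 and 0.35, given as values without a test. Where the histone sums were highest, in the 4 early Panc-1 libraries and the 3 mock and 24 h AsPC-1 libraries, the order of the 62 members was similar between the lines (Spearman rho 0.824 over 62 genes, a description of genes that share library, depth and gene length).

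**Figure D3:**
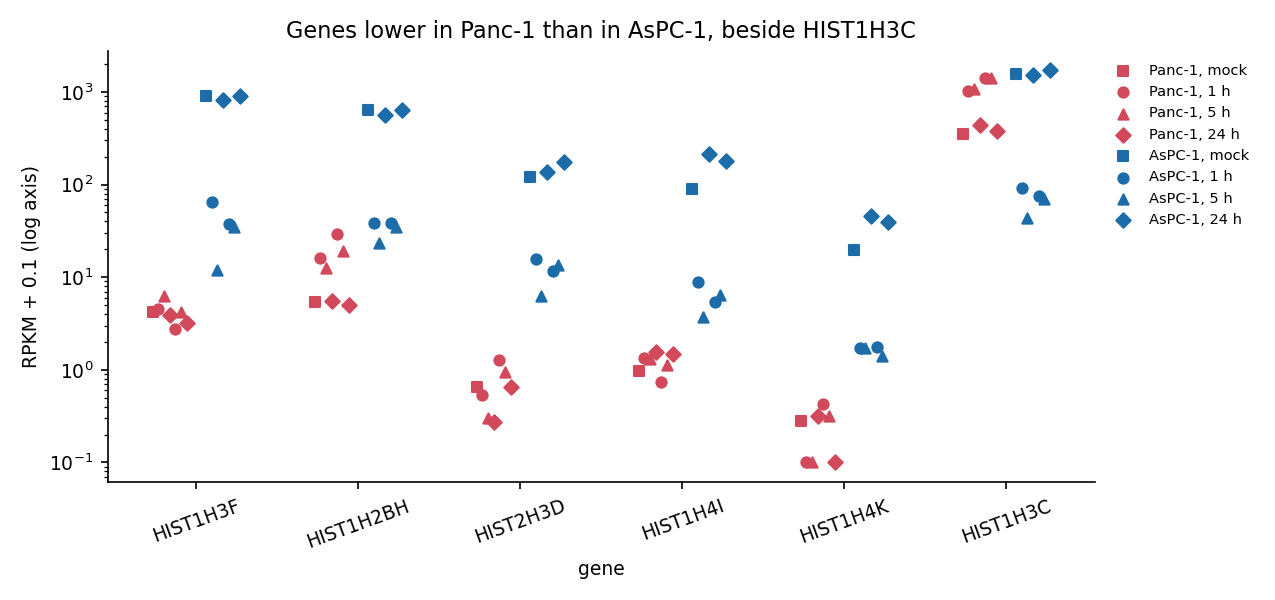
RPKM + 0.1 on a log axis of the 5 members lower in Panc-1, with HIST1H3C for comparison, in Panc-1 (red) and AsPC-1 (blue). Each symbol is 1 library, in the order mock, EGF 1, 5 and 24 h, ANG 1, 5 and 24 h, with shapes for mock, 1, 5 and 24 h. HIST1H3F lies between 2.67 and 6.13 RPKM in Panc-1 and between 11.8 and 904 RPKM in AsPC-1.

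**Figure D4:**
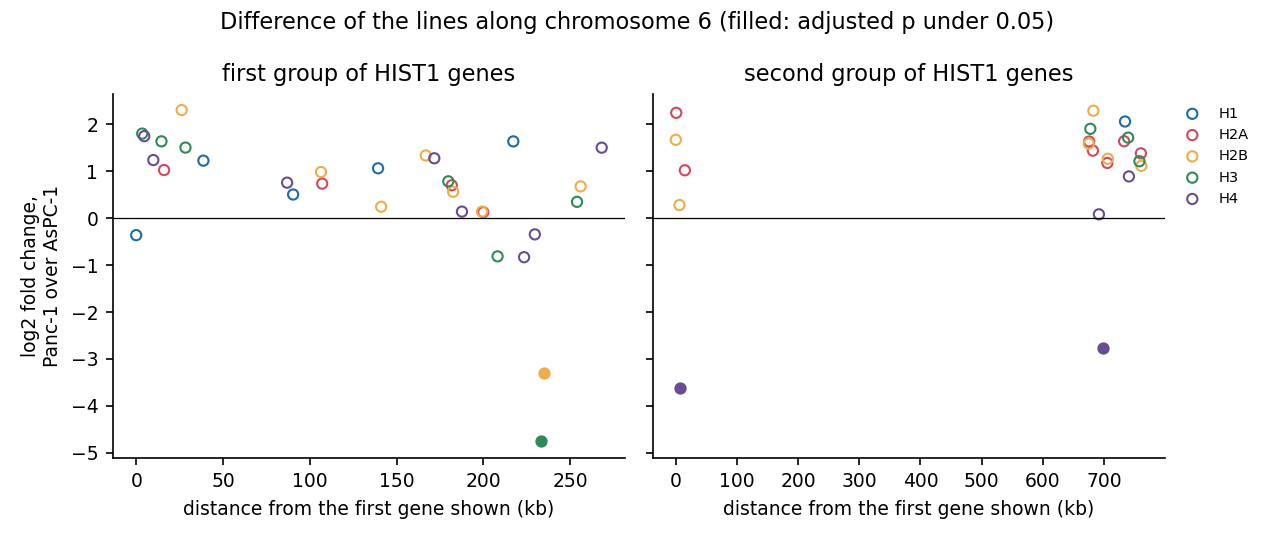
Log2 fold change of Panc-1 over AsPC-1 for the HIST1 members on chromosome 6, by distance in kb from the first gene of each group. Filled points passed an adjusted p of 0.05 and open points did not. HIST1H3F and HIST1H2BH, at -4.76 and -3.30, lie next to each other in the first group, and HIST1H4I and HIST1H4K, at -3.62 and -2.77, are apart in the second. HIST1H4K became a member only through AsPC-1 libraries, so its filled point is a description.

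Many H2A and H2B genes are arranged as divergent pairs that share a short region between their starts. There were 12 such pairs of members, 11 of them of H2A with H2B, with 239 to 322 bp between the starts. HIST1H3D and HIST1H2AD, which overlap by 453 bp on the same strand, both pair with HIST1H2BF, so these 12 pairs are not all separate. By 24 h the median absolute difference between partners was 0.251 on the log2 scale in Panc-1, against 0.26 in AsPC-1. Most members moved alike within a line, and members that are not partners were not compared. Whether partners are more alike than other members is therefore not shown. HIST1H2BG and HIST1H2AE, 275 bp apart, changed by -1.71 and -1.82 in Panc-1, against 3.27 and 3.35 in AsPC-1. HIST1H2BJ and HIST1H2AG, 241 bp apart, changed by -1.85 and -1.84 in Panc-1, against 4.07 and 3.93 in AsPC-1. The pair that differed most was HIST1H2BK and HIST1H2AH, 270 bp apart, with 1.09 for HIST1H2BK and 3.85 for HIST1H2AH in AsPC-1. The pairs are a description, with no test.

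Genes linked to histone supply were set beside the members. At 24 h, 17.0% of all genes tested were lower and 16.0% higher in Panc-1, and 29.8% were higher and 19.4% lower in AsPC-1. Of 32 S phase genes measured, 29 were lower at 24 h in Panc-1 and 31 higher at 24 h in AsPC-1. Their median log2 fold change was -1.15 in Panc-1, against 1.51 in AsPC-1, smaller in size than the members' medians of -1.65 and 3.86. TYMS, thymidylate synthase, was at 60.4 RPKM in mock, 8.22, 2.73 and 44.1 RPKM at 1, 5 and 24 h of EGF, and 5.54, 4.79 and 57.2 RPKM at 1, 5 and 24 h of ANG in AsPC-1, and changed by -1.37 in Panc-1, against 3.09 in AsPC-1. RRM2, a subunit of ribonucleotide reductase, changed by -2.05 and 2.97, and TK1, thymidine kinase, by -1.18 and 3.05, in Panc-1 and AsPC-1. Of 11 measured histone chaperones, 7 were lower and 1 higher at 24 h in Panc-1, and 7 were higher and 0 lower in AsPC-1. ASF1B, which hands H3 and H4 to the assembly factors, was at 19.4 RPKM in mock, 5.01, 1.56 and 15.8 RPKM at 1, 5 and 24 h of EGF, and 2.82, 1.74 and 17.5 RPKM at 1, 5 and 24 h of ANG in AsPC-1, with -0.97 in Panc-1, against 2.31 in AsPC-1. The assembly subunits CHAF1A and CHAF1B and the H1 and H3 binding chaperone NASP fell by 0.97, 0.93 and 0.74 in Panc-1 and rose by 1.58, 1.30 and 1.35 in AsPC-1.

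Histone genes listed as replication-independent had medians closer to 0. Of 11 measured, 9 were lower and 1 higher at 24 h in Panc-1 (median -0.57), and 7 were higher and 0 lower in AsPC-1 (median 1.10). Among all genes tested, 17.0% were lower and 16.0% higher in Panc-1, and 29.8% were higher and 19.4% lower in AsPC-1. CENPA, the centromeric H3, was at 11.6 RPKM in mock, 38.2, 33.1 and 9.93 RPKM at 1, 5 and 24 h of EGF, and 38.6, 43.3 and 10.4 RPKM at 1, 5 and 24 h of ANG in Panc-1 and had the largest Panc-1 change of the list (log2 fold change -1.81 ± 0.18 SE, adjusted p = 0.000952). The linker variants H1F0 and H1FX rose by 2.17 and 2.17 in AsPC-1 and fell by 0.51 and 0.57 in Panc-1, and the variant H2AFZ rose by 1.64 and fell by 1.06. Factors that transcribe or process histone mRNA were mixed, with 6 lower and 1 higher of 14 in Panc-1 and 7 higher and 5 lower in AsPC-1. NPAT, which activates histone transcription, was at 12.6 RPKM in mock, 4.71, 3.84 and 8.26 RPKM at 1, 5 and 24 h of EGF, and 5.11, 4.18 and 12.3 RPKM at 1, 5 and 24 h of ANG in AsPC-1, with -0.44 in Panc-1 (adjusted p = 0.0494) and 1.03 in AsPC-1 (adjusted p = 0.000911). CPSF3, the endonuclease of the 3′ end cleavage complex, rose by 0.90 in AsPC-1 and ERI1, an exonuclease that acts on histone mRNA, by 0.69. SLBP, the stem-loop binding protein, singled out after its values were seen, was at 45.9 RPKM in mock, 54.6, 50.6 and 32.2 RPKM at 1, 5 and 24 h of EGF, and 49.0, 45.5 and 36.8 RPKM at 1, 5 and 24 h of ANG in AsPC-1 and fell at 24 h in both lines (Panc-1 log2 fold change -0.45 ± 0.10 SE, adjusted p = 0.0132, AsPC-1 log2 fold change -0.52 ± 0.10 SE, adjusted p = 0.0041).

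**Figure D5:**
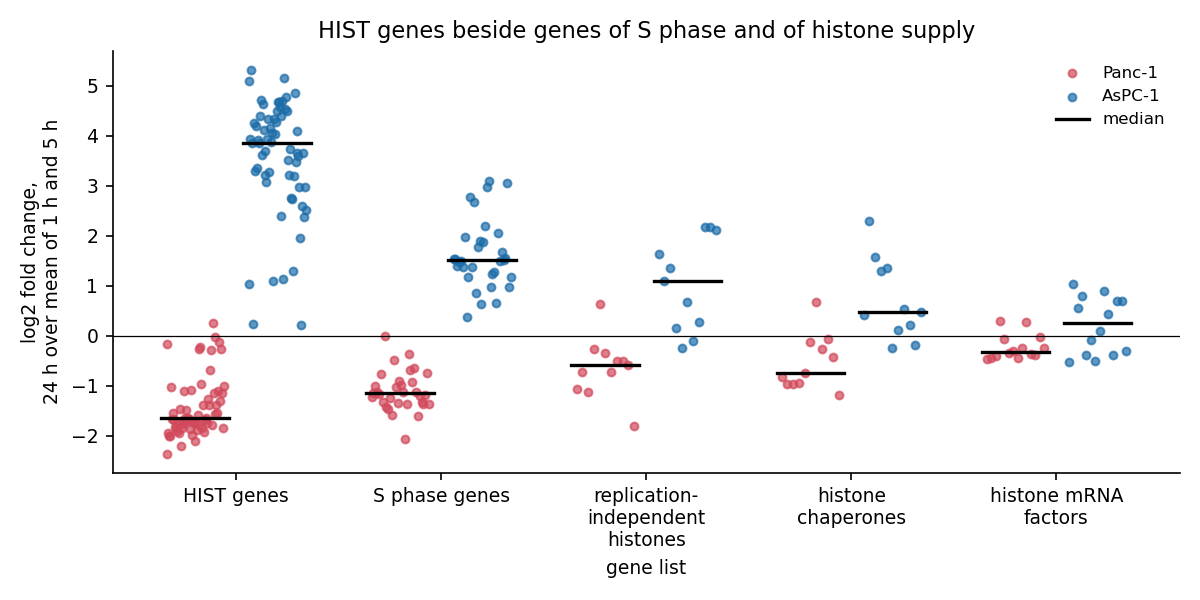
Log2 fold change at 24 h over the mean of 1 h and 5 h for the HIST members and for 4 other gene lists, in Panc-1 (red) and AsPC-1 (blue). Each point is 1 gene and black bars are medians, which for the HIST members are -1.65 in Panc-1, against 3.86 in AsPC-1, and for the S phase genes -1.15 and 1.51.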

How the data were processed

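The deposited files hold 1 table per library with log2 RPKM values per gene, and the submitters' processing notes name genome build hg19. The authors' aligner, counter, annotation, strandedness and treatment of multi-mapping reads were not given in the sources used here. The lowest value, -8.966, was read as an RPKM of 0. Total RNA was extracted with TRIzol, per the labels' protocols.

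Values were turned back to RPKM, and log2(RPKM + 1) was tested with limma 3.58.1 (R 4.3.3, variance trend) over 13427 genes with 1 RPKM or more in 2 libraries, with Benjamini-Hochberg adjustment. The time fit used the 12 treated libraries with a term for agent within line, the agent fit used 6 pairs of line and time, and the line fit 7 conditions. Fold changes on this scale understate changes of low genes. Single libraries against mock were described by a 2-fold difference. Scripts were tested on simulated data. Reads were estimated from the steps of genes up to 150 bp and refined on the short HIST rows. All member values under 60 reads were then within 0.1 of whole, which the refining itself favours. Among values of the genes up to 150 bp, 71.38% to 87.55% per library were within 0.1 of whole. Sequences are from RefSeq (GRCh38.p14) and GENCODE release 29, tabulated with pandas 2.3.3 in Python 3.11.15.

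Genes named are, per comparison, all called members if at most 6, otherwise the 6 highest and 6 lowest past the threshold (with none called, the 3 highest and 3 lowest), the member with the highest mean of each class, 7 fixed members, and up to 4 genes per list with the largest change; others were named after their values were seen. Members and lists were chosen with earlier results of these data known. The alternatives tried were other scalings, pseudocount, filter, model terms and leaving out each library.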

Additional observations from a re-analysis of the deposited data

Results flagged for a closer look

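The change of histone transcripts by 24 h differed between the lines by a test of the difference itself. It was past the threshold for 61 of 62 members, including all 51 at 1 RPKM or more in every library, all negative as Panc-1 minus AsPC-1 on the log2 scale (limma, adjusted p under 0.05), where the change at 24 h was measured against 1 h and 5 h. Among the linker genes the differences were -7.45 for HIST1H1B, -7.32 for HIST1H1D, -5.88 for HIST1H1C, -1.27 for HIST1H1T and -1.21 for HIST1H1A. Among H2A genes they were -6.85 for HIST1H2AL, -6.64 for HIST1H2AJ, -5.17 for HIST1H2AE and -4.83 for HIST1H2AC. Among H2B genes they were -4.98 for HIST1H2BG, -4.19 for HIST1H2BD, -3.90 for HIST2H2BE and -2.17 for HIST1H2BK. Among H3 genes they were -7.01 for HIST1H3H, -6.70 for HIST1H3J, -6.16 for HIST1H3C, -2.66 for HIST1H3E and -2.11 for HIST1H3G. Among H4 genes they were -4.99 for HIST1H4H, -4.95 for HIST1H4C, -3.51 for HIST4H4 and -1.58 for HIST1H4G. HIST1H1A, HIST1H1T, HIST1H3G and HIST1H4G became members only through libraries of the groups in which they were high, so their differences are descriptions. The difference was -1.17 for HIST1H1T without the AsPC-1 ANG 24 h library. For HIST1H4G it was -1.15 without the Panc-1 EGF 24 h library and -4.12 with a pseudocount of 0.1.

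Against the mock library of each line, the members' median log2 difference had opposite signs in the 2 lines at 1 h and 5 h. It was 1.54 in Panc-1, against -3.22 in AsPC-1 at 1 h of EGF, and 1.79 in Panc-1, against -4.27 in AsPC-1 at 5 h of EGF. It was 2.04 in Panc-1, against -3.67 in AsPC-1 at 1 h of ANG, and 1.97 in Panc-1, against -3.60 in AsPC-1 at 5 h of ANG. With 1 library per condition and line, this difference was not tested.

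Rows of HIST genes outside the members showed small values above both mock libraries. The highest treated value was 0.550 RPKM for a HIST2H2AA3 duplicate row and for the matching HIST2H2AA4 row (Panc-1, 1 h of ANG), and 0.700 RPKM for a HIST2H3A duplicate row and for the matching HIST2H3C row (Panc-1, 5 h of EGF). The HIST2H2BF duplicate rows reached 0.890 and 0.1 RPKM (Panc-1, 1 h of ANG). HIST1H2AA reached 0.280 RPKM in AsPC-1 at 24 h of ANG, and HIST1H2BA and HIST3H3 reached 0.350 and 0.320 RPKM in Panc-1 at 5 h of ANG. All were under the 1 RPKM that the members had to reach.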

How the results depend on the processing

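No called direction reversed under any alternative run. The AsPC-1 change of the summed members by 24 h, 3.85 on the log2 scale without rescaling, was 3.71 after median centring and 3.75 after trimmed mean scaling, both a move larger than the spread between agents (SD 0.09, n = 2). Median centring shifts single libraries by -0.16 to 0.14 on the log2 scale. Leaving out each treated library in turn gave 27 to 54 members called lower at 24 h in Panc-1, with 27 without the ANG 24 h library, 60 to 61 called higher in AsPC-1, and 60 to 62 in the difference between the lines. Leaving out each condition in turn gave 0 to 3 members called higher in Panc-1 than in AsPC-1 and 5 called lower each time. Of 2722 values of single members under the alternatives, 2708 kept their side of the threshold, 13 missed it and 1, HIST4H4 without the Panc-1 EGF 1 h library, passed it. Among the 2708, called values also kept their direction, while uncalled values could change sign. A stricter level for members reuses the same fits, and dropping the variance trend or a balanced model term leaves fold changes as they are. The count of 2708 was therefore partly fixed in advance. EGF and ANG were paired by line and time, and without that pairing 0 members were called, as with it; by replicate number no paired analysis was possible because each group holds 1 library. The 13 include HIST1H4F in 6 settings, and also HIST1H1T, HIST1H3G and HIST1H4G. These genes entered through the libraries in which they were high, so their part of the 13 is a description. Without the Panc-1 ANG 24 h library the Panc-1 log2 fold change was -0.41 for HIST1H4F, -0.56 for HIST1H1T, -0.62 for HIST1H3G and -0.61 for HIST2H2BA, against -0.68, -1.03, -0.97 and -1.10 with it. Depth limits 12 of the 57 short members, which had fewer than 20 estimated reads in at least 1 library.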
